A study of Mus musculus with 2 samples.

Results

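The cells described here were basal keratinocytes rich in Col17a1 transcripts, taken from 2 single-cell libraries of an injured mouse hindlimb. They were barcodes with at least 500 genes, at least 1000 unique molecular identifiers (UMIs, each standing for 1 captured transcript) and at most 10% mitochondrial UMIs. In each of them Krt5 and Krt14 together reached 50 counts per 10000 UMIs (CP10K), Col17a1 reached 5 CP10K and Ptprc had at most 1 UMI. The wound keratins Krt6a, Krt6b and Krt16 together stayed under 100 CP10K, Krt1 and Krt10 together under 100 CP10K, the follicle genes Lhx2 and Lgr5 together under 1 CP10K and the cycling genes Top2a and Mki67 together under 2 CP10K. The rule kept 858 of the 16430 barcodes that passed the cell filter, 408 of 7190 in the irradiated library and 450 of 9240 in the control library. The members were thus chosen by their levels of the genes named here, and those levels are given as a description only.

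Both libraries held unsorted cells of the tendon injury site from male C57BL/6 mice aged 8 to 10 weeks, collected on day 7 after a dorsal burn (30% of the surface) and transection of the left Achilles tendon, so the control mice carried the injury too. The irradiated mice had additionally received 1 dose of 7 Gy through a 2 cm collimator. According to the labels, irradiation was on day 1 or on day 3 after surgery in arms of 10 mice each, the series text points to day 3 in uncertain wording, and the number of mice pooled in each library is not stated. With 1 library for each condition there was no test between conditions. Intervals cover counting error only, and treatment, library and the patch of skin sampled cannot be told apart.

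Basal keratinocytes are the deepest layer of the epidermis, the renewing layer from which the cells above are made. They hold on to the basement membrane through hemidesmosomes, in which integrin alpha6 beta4 (Itga6 and Itgb4), plectin, dystonin and collagen XVII (Col17a1) tie the keratin filaments of Krt5 and Krt14 to laminin 332 outside the cell. Collagen XVII is known in mouse skin for its part in keeping basal and hair follicle stem cells anchored, and cells that leave the layer lose hemidesmosome genes and switch on differentiation genes. Ionizing radiation is known to stabilize p53, which drives genes of cell cycle arrest, repair and cell death. Interferons act through STAT and IRF factors on the element GAAANNGAAA in promoters and raise antiviral and antigen presentation genes.

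Promoter stretches of 4 interferon-responsive genes described further on are printed here because the element was present in them, with every GAAANNGAAA match on either strand in capitals (on the other strand it reads TTTCNNTTTC, and matches may overlap). Sequences are those of RefSeq on GRCm38.p6, read 5′ to 3′ on the strand of the gene, and end before the start site. B2m, the shared light chain of MHC class I molecules, lay on the plus strand at chr2:122147508-122147597. Isg15, a ubiquitin-like antiviral protein, lay on the minus strand at chr4:156200835-156200936. Ifit1, which binds foreign RNA, lay on the plus strand at chr19:34640745-34640853. Bst2 (tetherin), which holds budding viruses at the membrane, lay on the minus strand at chr8:71537547-71537642.
B2m: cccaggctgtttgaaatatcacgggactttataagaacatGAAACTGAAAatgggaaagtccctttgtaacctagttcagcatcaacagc
Isg15: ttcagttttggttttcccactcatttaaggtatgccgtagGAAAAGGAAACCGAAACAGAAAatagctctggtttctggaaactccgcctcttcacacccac
Ifit1: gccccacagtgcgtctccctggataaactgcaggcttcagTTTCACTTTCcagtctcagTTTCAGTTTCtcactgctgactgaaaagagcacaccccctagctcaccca
Bst2: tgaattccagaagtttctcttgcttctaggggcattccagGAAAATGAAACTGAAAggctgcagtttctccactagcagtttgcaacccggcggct

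The 408 irradiated cells held 11077965 UMIs and the 450 control cells 8079607. The median cell had 24980.5 UMIs in the irradiated library (range 1427 to 155327) and 16519.5 in the control library (range 1001 to 72549), and mitochondrial UMIs made up a median of 4.37% in irradiated and 4.66% in control cells. Across the libraries 32 barcodes occurred in both, and none of them was a member in both. RNA of other cell types differed between the libraries in the same cells. The fibroblast markers, all 8 of them lower in irradiated cells, summed to 5.78 CP10K in irradiated and 15.1 CP10K in control cells, and per cell to a median of 0.443 (range 0 to 692) and 3.03 CP10K (range 0 to 448). The leukocyte markers, 7 of 11 measured lower, summed to 0.658 and 1.86 CP10K, with Trdc at 0 in the irradiated and Cd207 at 0 in the control library, and the endothelial markers, 5 of 5 lower, to 0.0984 and 0.495 CP10K. The red cell markers, 4 of 5 higher, summed to 5.76 and 2.59 CP10K, but among cells of 10000 to 30000 UMIs none of 4 was higher. In subclusters 2 and 4 of the members, described at the end, 3 of 3 and 4 of 4 measured were higher. The Merkel cell list summed to 14 UMIs in irradiated and 11 UMIs in control cells, with no UMI for its genes Krt20 and Atoh1. The muscle list summed to 0.0271 and 0.0334 CP10K. Melanocyte markers summed to 47 and 14 UMIs, with the 1 gene measured called higher. Sebaceous markers, 2 of 4 lower, summed to 0.871 and 1.37 CP10K. Fewer fibroblast-type barcodes were present in the irradiated library, 655 against 2602 in the control library.

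The cells carried the markers of the basal layer. Krt5 stood at a median of 55.2 CP10K per irradiated cell (range 0.551 to 162) and 52.9 CP10K per control cell (range 4.79 to 131), Krt14 at 148 CP10K (0 to 378) and 154 CP10K (13.5 to 355), and Col17a1 at 13.4 CP10K (5.0 to 47.6) and 12.9 CP10K (5.14 to 36.6). The 2 libraries overlapped over nearly the whole range of all 3. With every cell thinned to 2000 UMIs, which left out 5 irradiated and 9 control cells, Itga6 was detected in 79.7% of irradiated and 79.1% of control cells (98.8% and 98.4% unthinned). In leukocyte barcodes thinned alike it was detected in 8.45% and 8.85%. Trp63, the master regulator of the basal layer, was detected in 48.6% of irradiated cells (95% interval 43.7 to 53.6) and 58.0% of control cells (53.3 to 62.7), against 0.407% and 1.34% of leukocytes. Just inside the Col17a1 limit lay cells at 5.0 and 5.14 CP10K and just outside it cells at 4.95 and 4.96 CP10K in the irradiated and control library, where 99 and 163 barcodes failed on Col17a1 alone.

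**Figure D1:**
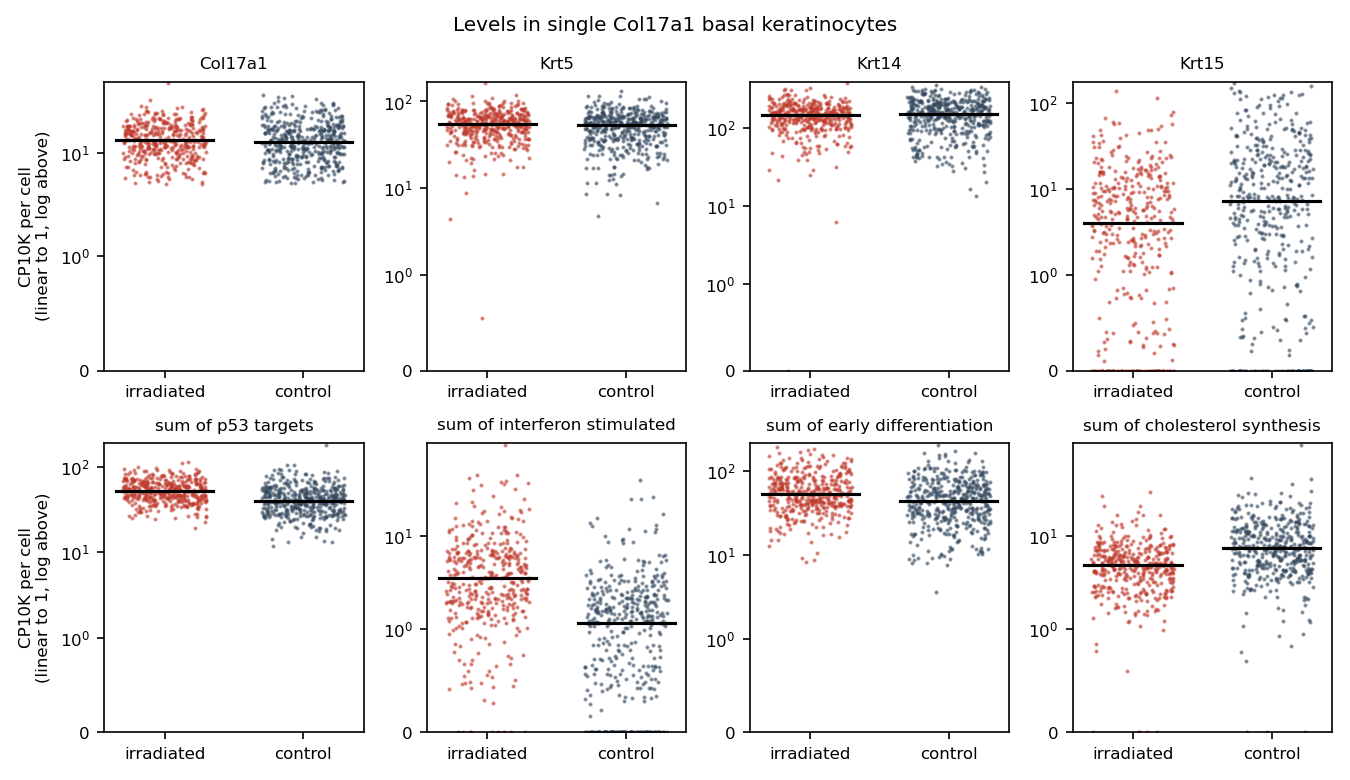
Level per cell (CP10K, linear up to 1 and logarithmic above) of 4 marker genes and of 4 gene lists summed, in the 408 irradiated cells (left, red) and the 450 control cells (right, dark), each point a cell and each bar the median. Col17a1, Krt5 and Krt14 overlap, while Krt15 has a median of 4.04 and 7.31 CP10K and the summed interferon list a median of 3.53 and 1.16 CP10K.

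The members made up a larger share of the keratinocytes in the irradiated library. Among barcodes with Krt5 and Krt14 at 50 CP10K and at most 1 Ptprc UMI they were 408 of 911 irradiated barcodes, 44.8% (exact Clopper-Pearson 95% interval 41.5 to 48.1), and 450 of 1596 control barcodes, 28.2% (26.0 to 30.5). Of all barcodes passing the filter they were 5.67% (5.15 to 6.23) in the irradiated and 4.87% (4.44 to 5.33) in the control library. Wound-edge keratinocytes, which carry the keratins 6 and 16 of healing epidermis at 100 CP10K or more, ran the other way, with 71 irradiated barcodes (7.79% of keratinocytes) and 370 control barcodes (23.2%). Suprabasal keratinocytes, set by Krt1 and Krt10 at 100 CP10K, numbered 39 (4.28%) and 118 (7.39%). Follicle keratinocytes, with Lhx2 and Lgr5 together at 1 CP10K or more, ran with the members, at 158 (17.3%) and 137 (8.58%). Each share depends on the other cells recovered in the same library. It depends on the rule too, whose limit on Top2a and Mki67 alone removed 90 irradiated and 235 control barcodes. With Col17a1 at 10 CP10K or more the shares of keratinocytes were 34.6% and 20%.

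For each gene the UMIs of all members of a library were summed, and the level was the CP10K of that sum. A gene was called higher or lower when the ratio of irradiated over control was at least 1.5-fold, its exact Poisson 95% interval left out equality and at least 20 UMIs had been counted. Of 12868 genes measured outside the rule, 642 (4.99%) were higher and 1760 (13.7%) were lower in irradiated cells, with a median log2 ratio of -0.14. With the median ratio of the genes of 200 UMIs or more set to 0, a shift of 0.12, 871 were higher and 1365 lower. The excess of lower calls was thus smaller with that scaling but remained. Within subclusters 0, 2, 4 and 5 of the members, described at the end, 5.22%, 5.0%, 4.69% and 6.03% of genes were higher. Lower there were 6.10%, 8.90%, 8.54% and 6.06%, so the excess was small in subclusters 0 and 5. The shares of 4.99% and 13.7% are the background for every count over all members below.

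Genes of the anchoring apparatus were nearly level. Of the 13 hemidesmosome and anchoring genes measured, none was called higher and 1 lower, and their median log2 ratio of -0.20 lay near that of all genes. Itga6 had 9.21 CP10K in irradiated and 10.3 CP10K in control cells, a log2 ratio of -0.17 (95% interval -0.21 to -0.12). Itgb4, its partner, had 2.48 and 1.86 CP10K (0.41, 0.32 to 0.51), short of the 1.5-fold limit. The laminin chain genes Lama3 (1.77 CP10K in irradiated and 2.60 CP10K in control cells, -0.56) and Lamb3 (1.19 and 1.37 CP10K, -0.20) did not reach the limit. Col7a1, the anchoring fibril collagen, had 0.780 and 1.06 CP10K (-0.45). With the wound keratins limited to 10 CP10K in place of 100 no gene of the list was called.

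Of the 15 basement membrane genes measured, 8 were lower and 1 higher, with a median log2 ratio of -0.76. The lowest ratio among them was that of Fras1, which is needed for adhesion of the epidermis in mouse embryos, with 0.0740 CP10K in irradiated and 0.371 CP10K in control cells (-2.33, -2.70 to -1.97). The collagen IV chains parted. Col4a1 (0.0731 and 0.226 CP10K, -1.63) and Col4a2 (0.0397 and 0.153 CP10K, -1.95) were lower, while Col4a6 (1.07 and 0.631 CP10K, 0.76) was higher. Nid1, a linker of laminin and collagen IV, had 0.0406 and 0.119 CP10K (-1.55). Col4a1 and Nid1 had more UMIs in fibroblast barcodes, where Col4a1 stood at 4.39 and 2.61 CP10K and Nid1 at 2.88 and 2.16 CP10K, and fibroblast markers were lower in irradiated members. The part of that RNA in these 2 ratios was not tested. Fras1 stood at 0.0487 and 0.0455 CP10K in fibroblast barcodes.

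Krt15, a keratin of quiescent basal and bulge cells that the rule did not use, was lower, with 7.5 CP10K in irradiated and 13.4 CP10K in control cells (log2 ratio -0.83, -0.88 to -0.79). Per cell its median was 4.04 CP10K (range 0 to 139) and 7.31 CP10K (range 0 to 169), so the libraries overlapped widely, and 10 of 408 irradiated cells exceeded the 90th percentile of control cells. At 2000 UMIs per cell Krt15 was detected in 51.6% of irradiated cells (46.6 to 56.6) and 63.7% of control cells (59.0 to 68.2), against 1.60% and 3.00% of leukocyte barcodes (81.4% and 84.9% of members unthinned). Krt15 lies at chr11:100131758-100135928 on the minus strand (GRCm38, GENCODE M21), and Col17a1 at chr19:47646344-47692094 on the minus strand. In wound-edge cells Krt15 ran the other way, with 3.22 CP10K in irradiated and 0.790 CP10K in control cells. Of the 16 basal identity genes measured, 2 were lower and 1 higher, shares near the background, with a median of -0.12. Besides Krt15 the lower one was Sostdc1, an antagonist of BMP and Wnt signalling (0.492 and 1.49 CP10K, -1.60), and the higher one was the chemokine Cxcl14 (1.72 and 1.11 CP10K, 0.63). No basal identity gene was called higher with the stricter cell filter, without doublets, with Col17a1 at 10 CP10K or in the mean of 4 subclusters described at the end. Trp63 had 4.0 and 5.16 CP10K (-0.37), Wnt4 3.79 and 3.83 CP10K (-0.02) and Wnt10a 0.972 and 0.913 CP10K (0.09).

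Hair follicle genes were lower in 6 of 11 and higher in none, with a median of -0.63. The count depended on depth and cell weighting, with 3 lower and 1 higher at 2000 UMIs per cell (median -0.16), 4 and 1 with cells weighted alike (-0.23) and 4 and 1 in cells of 10000 to 30000 UMIs (-0.11). Gas1 had 1.92 CP10K in irradiated and 4.88 CP10K in control cells (-1.35, -1.42 to -1.27), and Runx1, a regulator of follicle stem cells, 0.753 and 1.86 CP10K (-1.30). Tcf7l1, a Wnt repressor of stem cells, had 0.0812 and 0.186 CP10K (-1.19) and Cd34, a bulge surface marker in mouse, 0.0244 and 0.0693 CP10K (-1.51), but fibroblast barcodes held Cd34 too, at 1.70 and 0.645 CP10K. Sox9 had 1.15 and 1.24 CP10K (-0.12), but its level varied between subclusters of the members, described at the end. In subcluster 2, with 78 irradiated and 44 control cells, it stood at 5.03 and 2.27 CP10K. In subcluster 0 it stood at 0.206 and 0.0869 CP10K. The rule set follicle cells aside by Lhx2 and Lgr5 only, so members may include other cells of the follicle. Gas1 and Runx1 were lower in suprabasal cells too, with 0.774 and 1.97 CP10K for Gas1 and 0.167 and 1.24 CP10K for Runx1.

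Early differentiation genes were higher in 9 of the 19 measured and lower in 1, with a median of 0.64, although cells with much Krt1 or Krt10 had been left out by the rule. Sbsn (suprabasin) showed the largest ratio, with 2.84 CP10K in irradiated and 0.624 CP10K in control cells (2.19, 2.05 to 2.33). At 2000 UMIs it was detected in 37.7% of irradiated cells (33.0 to 42.6) and 13.6% of control cells (10.5 to 17.2), against 2.70% and 4.47% of leukocytes and 10.3% (8.00 to 12.9) and 10.0% (8.86 to 11.2) of fibroblast barcodes, so the control share lay close to that of fibroblasts. Krtdap, a peptide of differentiating keratinocytes, had 9.24 and 5.92 CP10K (0.64). The shares of cells with Krtdap at 2000 UMIs were alike, 47.6% of irradiated (42.7 to 52.6) and 45.8% of control cells (41.1 to 50.6). Spink5, an inhibitor of skin proteases, had 0.144 and 0.0532 CP10K (1.43), and the transcription factor Grhl3 0.279 and 0.125 CP10K (1.16). The lower one was Tgm1, a cross-linking enzyme of the cornified envelope, with 9 UMIs in irradiated and 16 UMIs in control cells. Ivl and Lor, late genes, had 0.0172 and 0.0173 CP10K and 0.0731 and 0.101 CP10K, neither of them called. In wound-edge cells 4 of 20 genes of the list were higher and 3 lower (median 0.02), and in suprabasal cells 4 and 5 of 20 (median -0.18). Sbsn was higher in wound-edge cells (13.9 and 5.87 CP10K) and in suprabasal cells (14.6 and 5.87 CP10K) as well, while Spink5 in suprabasal cells had 0.293 CP10K in irradiated and 0.874 CP10K in control cells.

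Notch receptors, which drive basal cells into differentiation, were among the higher genes. Notch1 had 4.10 CP10K in irradiated and 1.69 CP10K in control cells (1.27, 1.19 to 1.36), and Notch3 0.190 and 0.0804 CP10K (1.24, 0.84 to 1.67). They were the 2 called among 12 Notch pathway genes measured, and the ligand Jag2 had 0.774 and 0.838 CP10K (-0.12). Of 18 cell junction genes, 2 were higher and 2 lower. The tight junction genes Cldn4 (0.180 and 0.0396 CP10K, 2.18) and Cldn1 (1.02 and 0.615 CP10K, 0.72) were higher, and the desmosomal Dsc2 (0.0632 and 0.135 CP10K, -1.09) and the gap junction gene Gjb2 (0.0966 and 0.587 CP10K, -2.60) lower. Dsg3, a basal desmosomal cadherin, had 3.66 and 3.10 CP10K (0.24) and Cdh1 4.92 and 3.75 CP10K (0.39). In wound-edge cells Notch1 had 1.29 and 0.888 CP10K (0.54).

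Of the 32 p53 target genes measured, 17 were higher and 3 lower, 17 against a background of 4.99%, and 12 were not called, with a median log2 ratio of 0.88. Cdkn1a, the inhibitor of cyclin-dependent kinases at chr17:29090976-29100727, had 2.69 CP10K in irradiated and 0.879 CP10K in control cells (1.61, 1.49 to 1.73). Per cell its median was 1.77 CP10K (range 0 to 18.2) and 0.361 CP10K (range 0 to 13.6), and 369 of 408 irradiated cells lay above the control median. Mdm2, which degrades p53, had 1.23 and 0.597 CP10K (1.05, 0.90 to 1.20). Ccng1, a cyclin G of the same feedback, had 0.940 and 0.255 CP10K (1.88), and Zmat3, an RNA-binding protein, 0.759 and 0.199 CP10K (1.93). The death receptor gene Eda2r showed the largest ratio of the list, with 0.218 and 0.0309 CP10K (2.82, 2.22 to 3.48), and Psrc1 had 0.165 and 0.0297 CP10K (2.48).

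The 3 lower genes of the list were Gdf15, a stress cytokine with 10 and 21 UMIs, and the mTOR inhibitors Ddit4 (0.381 and 0.632 CP10K, -0.73) and Sesn1 (0.468 and 0.708 CP10K, -0.60). Among death genes Bbc3 (0.324 and 0.156 CP10K, 1.06) was higher, while Bax (1.21 and 0.904 CP10K, 0.42) and Pmaip1 (0.263 and 0.377 CP10K, -0.52) were not called. Sfn, Perp and Btg2, with log2 ratios of 0.12, 0.10 and -0.03, were not called, and they held most of the summed level of the list (55.2 and 45.0 CP10K, a log2 ratio of 0.30, short of the limit). In wound-edge cells 13 of 32 genes were higher and 2 lower (median 0.30, background 4.48% higher and 12.9% lower), and in suprabasal cells 16 of 31 were higher and 1 lower (median 0.63, background 4.93% higher and 13.1% lower). In leukocyte barcodes Zmat3 stood at 0.131 and 0.110 CP10K, so its level there was below that of the members.

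Around the p53 list, DNA damage response genes were lower in 6 of 24 and higher in none (median -0.17). Fancd2, with 8 UMIs in irradiated and 27 UMIs in control cells, Brca1 (0.0172 and 0.0520 CP10K, -1.60) and Chek1 (0.0442 and 0.0941 CP10K, -1.09) were among the lower ones, all of them genes of S phase or homologous repair. The damage kinase Atm had 0.255 and 0.203 CP10K (0.33). Of 21 DNA synthesis genes 8 were lower (median -0.53), Gmnn with 0.162 and 0.371 CP10K (-1.20) and Rrm2 with 0.190 and 0.391 CP10K (-1.04), and of 19 mitosis genes 16 were lower (median -1.13), Birc5 with 0.0903 and 0.323 CP10K (-1.84) and Ccnb1 with 0.0271 and 0.115 CP10K (-2.09). The rule had removed cells rich in Top2a or Mki67, so these counts concern the few cycling transcripts left. The mitosis count fell to 8 with wound keratins limited to 10 CP10K. Of 11 G1 regulators measured 2 were higher and 3 lower, with a median of -0.14, the same as that of all genes. The G1 cyclins Ccnd2 (4.31 and 1.79 CP10K, 1.27) and Ccnd1 (2.70 and 1.52 CP10K, 0.82) were higher.

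Of 18 genes of the BCL2 family and the caspases, Casp4, an inflammatory caspase, was higher (0.818 and 0.260 CP10K, 1.65, 1.44 to 1.88), as was Zbp1, a sensor of nucleic acids (48 and 16 UMIs). Casp8 (0.189 and 0.290 CP10K, -0.62) was among the lower genes, though none was called lower without doublets, and Bcl2 and Mcl1 had log2 ratios of -0.26 and 0.11. Of 11 senescence genes measured 7 were lower and 1, Cdkn1a, was higher, with a median of -0.64. Igfbp3, a growth factor binding protein, had 0.719 and 2.26 CP10K (-1.65). Cdkn2a had no UMI in irradiated cells, where 3 UMIs is the limit that a count of 0 allows, and 5 UMIs in control cells.

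**Figure D2:**
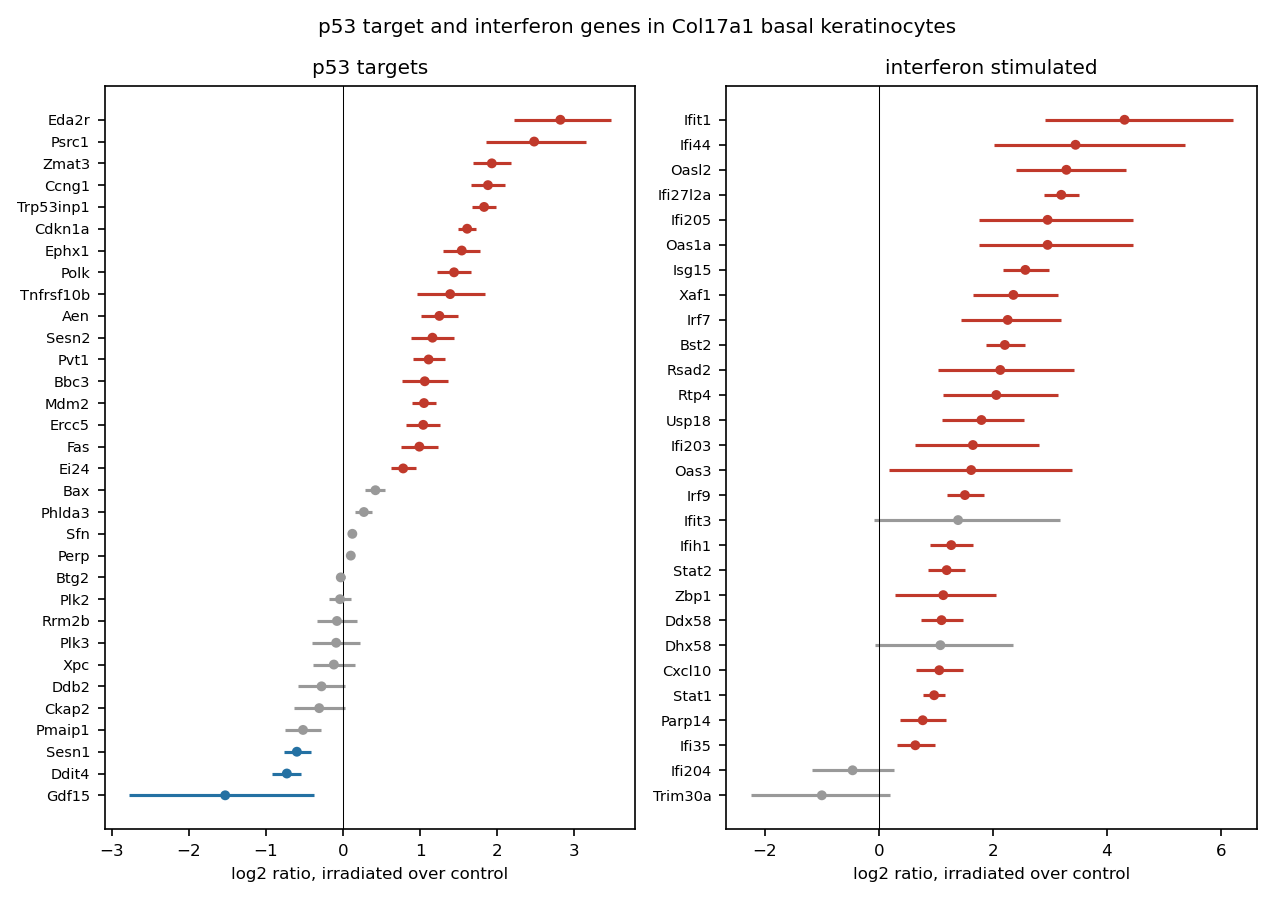
Log2 ratio of irradiated over control, with the exact 95% counting interval as a line, for each measured p53 target (left) and interferon-stimulated gene (right) in the members. Red marks genes called higher, blue genes called lower and grey genes not called, 17 and 24 of them red.

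Interferon-stimulated genes were higher in 24 of the 28 measured, of 33 found in the feature list, and lower in none, with a median log2 ratio of 1.63. Mx1 and Mx2 were not analysed here. Isg15 had 0.448 CP10K in irradiated and 0.0755 CP10K in control cells (2.57, 2.18 to 2.98). Ifit1 had 109 UMIs in irradiated and 4 UMIs in control cells (4.31, 2.92 to 6.21), and Oasl2, of the 2′-5′ oligoadenylate synthetase family, 148 and 11 UMIs (3.29). Ifi27l2a, an interferon-induced membrane protein gene, had 1.10 and 0.120 CP10K (3.20, 2.90 to 3.51), and Irf7, the amplifier of the type I response, 92 and 14 UMIs (2.26). Bst2 had 0.487 and 0.105 CP10K (2.21). Per cell the list summed to a median of 3.53 CP10K in irradiated cells (range 0 to 93.6) and 1.16 CP10K in control cells (range 0 to 39.1), and 194 of 408 irradiated cells lay above the 90th percentile of control cells.

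Of the 28 promoters of interferon list genes in the RefSeq table, which covered 24 genes, 16 (57.1%) held the element GAAANNGAAA, against 1131 of all 32851 promoters of the same length (3.44%). The windows ran from 250 bases before to 50 bases after the start site. In Isg15 the first of 3 overlapping matches began 78 bases before the start, and in Ifit1 the first of 2 matches 104 bases before it. Among MHC class I genes 4 of 15 promoters held it, in B2m 139 bases before the start. A match describes the letters only.

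Interferon genes also had RNA in the other cells of the site. The list summed to 59.9 and 18.1 CP10K in leukocyte barcodes and to 31.5 and 3.95 CP10K in fibroblast barcodes, against 5.47 and 1.72 CP10K in the members. In the same members the leukocyte markers were at 0.658 and 1.86 CP10K, of 155 and 151 CP10K in leukocytes, and were lower in the irradiated library. In wound-edge cells 22 of 25 interferon genes were higher and 1 lower (median 2.07), Isg15 with 0.631 and 0.0238 CP10K, and in suprabasal cells 6 of 9 were higher (median 0.83). Of 9 interferon receptor and ligand genes measured none was called higher, Il10rb was lower (0.0632 and 0.150 CP10K, -1.24), and Ifnar1 (0.159 and 0.178 CP10K, -0.17) and Ifnar2 (0.474 and 0.528 CP10K, -0.16) were not called. Among genes induced mainly by interferon gamma 6 of 10 were higher and none lower, Igtp with 40 and 7 UMIs and Gbp2 with 87 and 26 UMIs, while their regulator Irf1 had 0.791 and 0.838 CP10K (-0.08). Summed, that list had 1.30 and 1.15 CP10K (0.18). None of its genes was called higher in the mean of 4 subclusters, where 1 of 6 was lower, or at 2000 UMIs per cell, where 2 were measured.

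Of 16 MHC class I presentation genes 12 were higher and none was lower (median 1.09). B2m, at chr2:122147686-122153083, had 7.09 CP10K in irradiated and 2.09 CP10K in control cells (1.76, 1.69 to 1.84), a median per cell of 6.59 CP10K (range 0 to 32.5) and 1.44 CP10K (range 0 to 36.8). More than the median control level was present in 353 of 408 irradiated cells. The heavy chain H2-K1 had 6.57 and 3.27 CP10K (1.01) and the immunoproteasome subunit Psmb9 0.203 and 0.0668 CP10K (1.60). H2-Q6 (81 and 8 UMIs) and H2-Q7 (496 and 70 UMIs) were higher too, but they are near-identical copies between which the counting could split reads. MHC class II genes were higher in 2 of 6, H2-Eb1 with 0.372 and 0.134 CP10K (1.48) and the invariant chain Cd74 with 0.394 and 0.261 CP10K (0.60). That count was 5 of 6 without doublets (median 0.99, against 0.33), 4 of 6 in cells of 10000 to 30000 UMIs and 1 of 6 with the stricter cell filter. Both are abundant in leukocyte barcodes, Cd74 at 39.5 and 31.0 CP10K. In wound-edge cells both ran the other way, Cd74 with 0.0795 and 0.30 CP10K and H2-Eb1 with 0.0487 and 0.180 CP10K. Leukocyte markers summed to 0.418 CP10K in irradiated and 1.55 CP10K in control wound-edge cells, and the part of leukocyte RNA was not tested.

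Wound activation genes were lower in 10 of 23 and higher in 1, with a median of -0.22, under a rule that removes cells rich in Krt6a, Krt6b and Krt16. Krt17, the keratin induced at wound margins, had 2.03 CP10K in irradiated and 4.52 CP10K in control cells (-1.16), and was detected at 2000 UMIs in 11.9% (8.91 to 15.5) and 25.4% of cells, against 1.57% and 4.52% of leukocytes. Its log2 ratio was not alike in subclusters 0, 2, 4 and 5, described at the end, with 1.41, -0.01, -2.91 and -1.89. The gelatinase Mmp9 had 23 and 95 UMIs (-2.5), and Il24, a cytokine of wound-edge keratinocytes, 0.105 and 0.470 CP10K (-2.17). The higher one was S100a9, an alarmin (0.466 and 0.239 CP10K, 0.96), in leukocyte barcodes 39.3 and 17.1 CP10K. No wound activation gene was called higher among members without a Ptprc UMI, at 2000 UMIs per cell or in the mean of 4 subclusters, and the part of leukocyte RNA in the ratio was not tested. S100a8, its partner, had 0.261 and 0.175 CP10K (0.58), just short of the limit. Among 17 cytokines and chemokines 7 were higher and 4 lower (3 and 4 in the mean of 4 subclusters). Cxcl2, a neutrophil attractant, had 1.02 and 0.283 CP10K (1.85), in leukocyte barcodes 64.7 and 19.1 CP10K. The monocyte attractant Ccl2 had 0.173 and 0.817 CP10K (-2.24), but within subclusters, described at the end, it ran in both directions. Its log2 ratio was 2.21 in subcluster 2 (100 and 8 UMIs) and -2.21, -2.05 and -3.42 in subclusters 0, 4 and 5. Cxcl12 had 0.0939 and 0.359 CP10K (-1.93) and Cxcl5 8 and 74 UMIs (-3.66). Fibroblast barcodes held Cxcl12 at 5.29 and 6.25 CP10K and Cxcl5 at 6.90 and 4.59 CP10K, and the part of their RNA in these ratios was not tested.

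Genes of metabolism and stress were lower or level. Cholesterol synthesis genes were lower in 12 of 18 and higher in none, with a median of -0.85. Sqle, the squalene epoxidase, had 0.116 CP10K in irradiated and 0.391 CP10K in control cells (-1.75, -2.05 to -1.45). Idi1, an isomerase of the same pathway, had 0.245 and 0.651 CP10K (-1.41). Per cell the list summed to a median of 4.84 CP10K (range 0 to 29.9) and 7.44 CP10K (range 0 to 95). In wound-edge cells none of the 18 was called and the median was 0.19, Sqle with 1.17 and 0.986 CP10K. In suprabasal cells 1 of 18 and in follicle cells 2 of 18 were lower, each with a median of -0.20. Lower levels were not particular to the members, with 12 of 18 lower in leukocyte barcodes (median -0.67) and 6 of 18 in fibroblast barcodes (median -0.51). Of 17 glycolysis and hypoxia genes 6 were lower, the glucose transporter Slc2a1 with 0.965 and 2.87 CP10K (-1.57). Of 20 oxidant defence genes 4 were lower (0 of 19 at 2000 UMIs per cell), Gclm with 0.524 and 1.08 CP10K (-1.04) and Hmox1 with 0.0812 and 0.219 CP10K (-1.43). Of 12 heat shock genes 3 were lower, Hspa1a with 1.10 and 2.65 CP10K (-1.27).

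Immediate early genes, which rise during cell isolation, were called in neither direction (0 of 17), Fos at 9.38 and 9.46 CP10K and Jun at 7.20 and 6.90 CP10K. Within subclusters of the members, described at the end, they ran in opposite directions, with 12 of 17 lower in subcluster 0 (median -0.82), where Fos had 4.59 and 10.5 CP10K (-1.19), and 6 of 17 higher in subcluster 2 (median 0.45), where Fos had 12.6 and 6.92 CP10K (0.86). Ribosomal protein genes, 77 measured with a median of 0.27, and respiratory chain genes, 71 with a median of 0.03, had 2 higher and none lower each. In the EGF receptor axis the receptors Egfr (4.91 and 3.13 CP10K, 0.65) and Erbb3 (0.737 and 0.469 CP10K, 0.65) were higher and the ligands Ereg (0.0343 and 0.235 CP10K, -2.78) and Areg (0.497 and 0.886 CP10K, -0.83) lower, 4 called of 15. TGF-beta and BMP genes were lower in 5 of 20 and higher in none, Tgfb2 with 0.0749 and 0.240 CP10K (-1.68). Among 21 Wnt genes 3 were higher and 6 lower (0 and 2 of 19 at 2000 UMIs per cell), Wnt5a with 0.140 and 0.355 CP10K (-1.34) and Wnt6 with 0.0849 and 0.0322 CP10K (1.40).

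**Figure D3:**
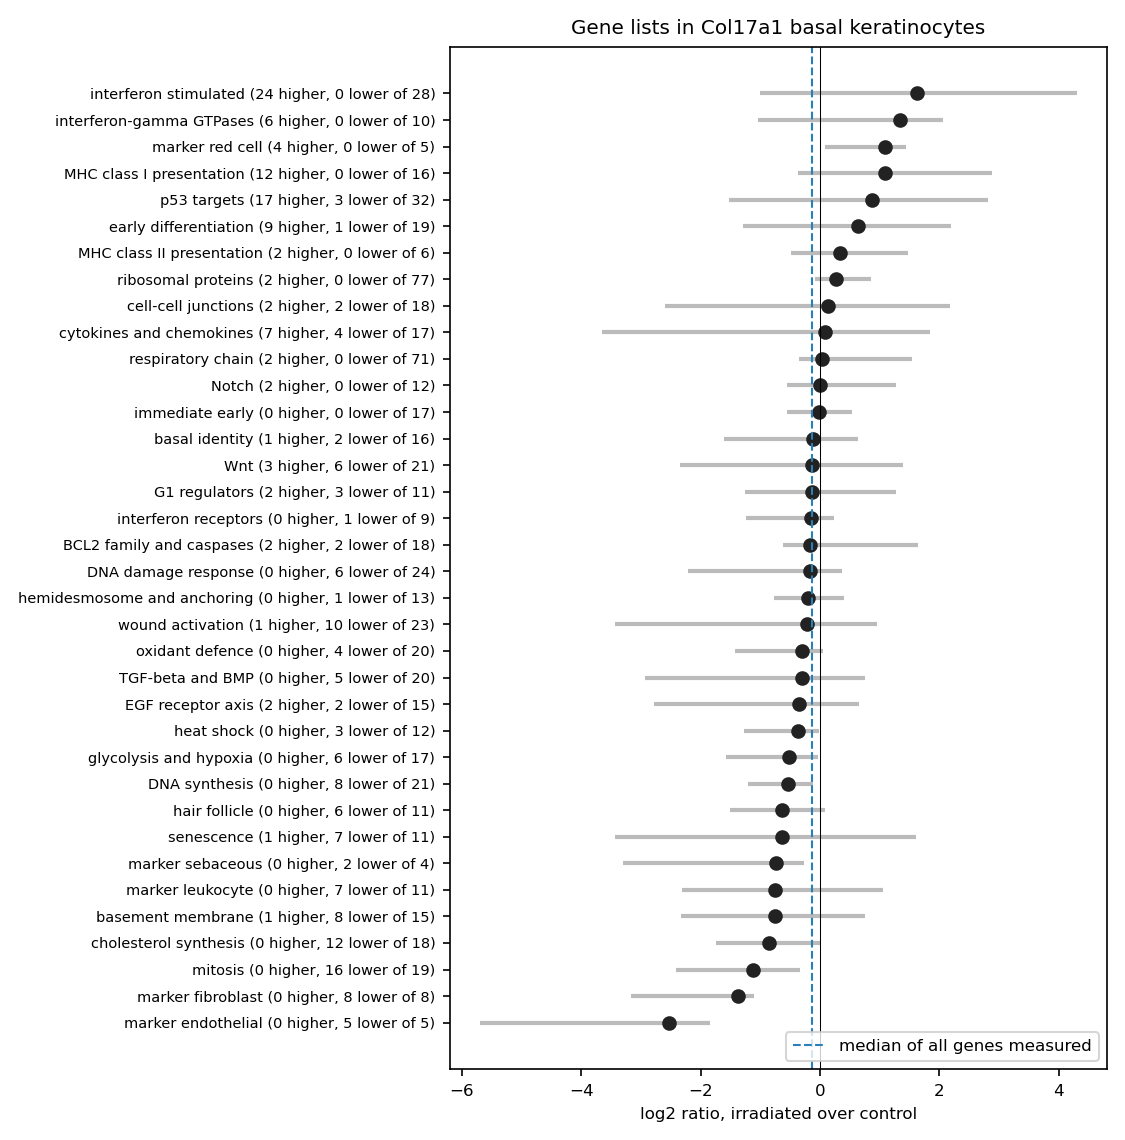
Median log2 ratio (point) and range (line) of the measured genes of each list, irradiated over control, in the members, with the numbers called higher and lower beside the name and the median of all 12868 genes as a dashed line. The interferon list (24 of 28 higher) has the highest median, at 1.63, and mitosis (16 of 19 lower) the lowest among the keratinocyte lists, at -1.13.

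Among 3645 genes with at least 0.5 CP10K in either library, the 12 with the highest ratios by the interval bound nearest to 0 included Ifi27l2a, B2m, Sbsn and Zmat3 from the lists. First stood Gria3, a glutamate receptor subunit gene at chrX:41400854-41678601, with 0.793 CP10K in irradiated and 0.0186 CP10K in control cells (5.42). It had a UMI in 225 of 408 irradiated cells and 11 of 450 control cells, and at 2000 UMIs in 12.2% (9.13 to 15.8) and 1.36% of cells, against 0.843% and 1.98% of leukocytes and 20.5% and 17.5% of fibroblast barcodes. Mcam, an adhesion molecule of the immunoglobulin family, had 0.884 and 0.0569 CP10K (3.96) and a UMI in 300 of 408 and 34 of 450 cells. Cd55, an inhibitor of complement, had 0.700 and 0.100 CP10K (2.80), and Mgmt, the enzyme that removes alkyl groups from guanine in DNA, 1.21 and 0.225 CP10K (2.43). Serpine2, a protease inhibitor, had 0.575 and 0.104 CP10K (2.47). The others were Fbxw9 (2.12), Ptp4a3 (2.11) and Lrmda (2.08).

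These genes did not behave alike in the other keratinocytes. Cd55 in wound-edge cells had 0.185 CP10K in irradiated and 0.0367 CP10K in control cells and in suprabasal cells 0.502 and 0.108 CP10K, and Mgmt was higher in both sets, with 0.226 and 0.0656 CP10K and 0.628 and 0.0935 CP10K. Gria3 had 0.0436 and 0.0346 CP10K in wound-edge cells (0.33) and 0.307 and 0.0234 CP10K in suprabasal cells (3.71). Serpine2 had 0.100 and 0.140 CP10K in wound-edge cells (-0.49) and Lrmda 0.0795 and 0.113 CP10K (-0.51). Gria3 and Serpine2 were present in fibroblast barcodes, Gria3 at 1.38 and 1.04 CP10K and Serpine2 at 6.66 and 2.62 CP10K. Fibroblast markers summed to 0.587 CP10K in irradiated and 25.6 CP10K in control wound-edge cells. The part of fibroblast RNA in the ratios of Gria3 and Serpine2, in members and in wound-edge cells, was not tested.

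The 12 lowest genes were Acta2 (-3.11), Sh3kbp1 (-2.95), Pi15 (-2.84), Tspear (-2.73), Csta1 (-2.64), Fabp4 (-2.60), Gjb2 (-2.60), Col5a2 (-2.34), Cald1 (-2.26), Ccl2 (-2.24), Lyz2 (-2.18) and Flrt2 (-2.17). Acta2, smooth muscle actin, had 0.0659 CP10K in irradiated and 0.568 CP10K in control members and 12.4 and 12 CP10K in fibroblast barcodes. Lyz2, a lysozyme of macrophages, had 0.190 and 0.858 CP10K in members and 47.1 and 66.9 CP10K in leukocyte barcodes. Col5a2, a fibrillar collagen, is likewise a gene of fibroblasts, at 20.9 and 22.5 CP10K there. The part of RNA from those cells in these 3 ratios was not tested. Gjb2, Csta1, Flrt2, Pi15 and Sh3kbp1 were leading genes of 1 subcluster that held 11 irradiated and 107 control members. Ccl2 was not lower in every subcluster, with a log2 ratio of 2.21 in subcluster 2.

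**Figure D4:**
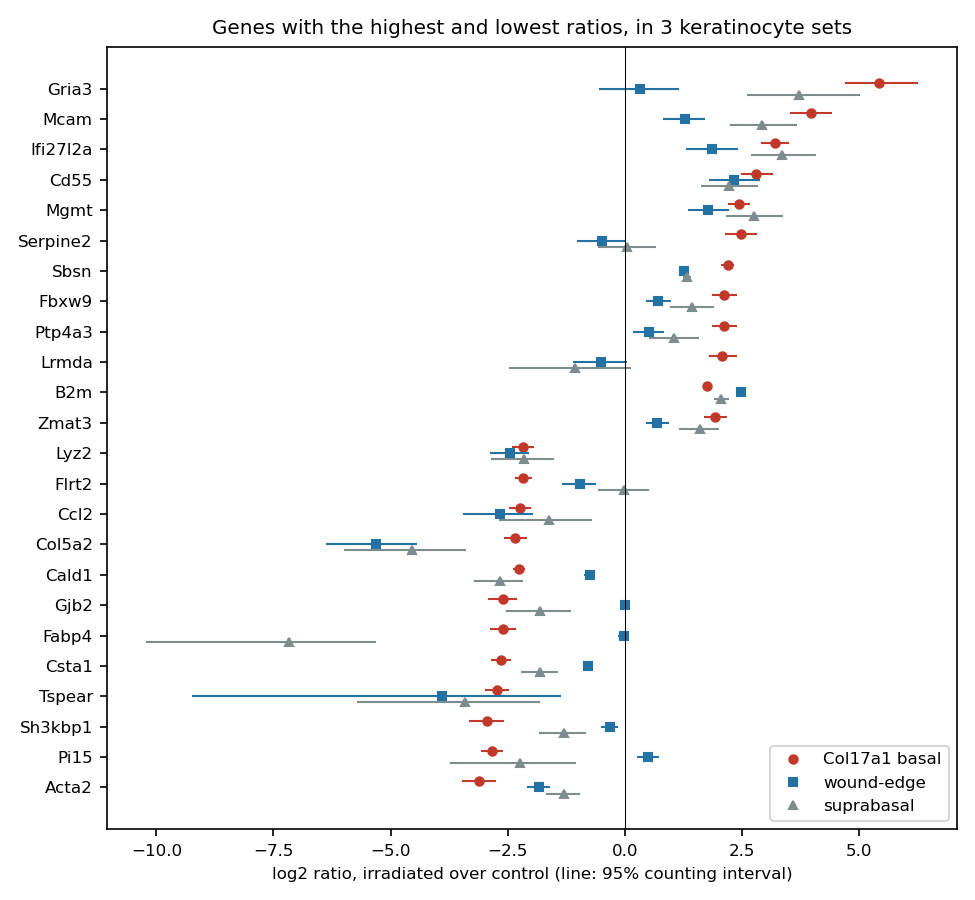
Log2 ratio of irradiated over control with its 95% counting interval for the 12 genes with the highest and the 12 with the lowest ratios in the members (red circles), and for the same genes in wound-edge (blue squares) and suprabasal keratinocytes (grey triangles) where at least 20 UMIs were counted and neither library was at 0. Gria3 stands at 5.42 in members and 0.33 in wound-edge cells, while Cd55 lies above 2 in all 3 sets. Fibroblast markers sum to 0.587 CP10K in irradiated and 25.6 CP10K in control wound-edge cells.

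The members were not uniform. Clustering of all 858 cells without the genes of the rule gave 9 subclusters. The clustering used genes that differ between the libraries, so subcluster sizes are no result, and a subcluster mostly of 1 library may be that library. Subcluster 1, led by haemoglobin genes, Stfa3 and B2m, held 149 irradiated and 13 control cells, subcluster 3 held 11 and 107, and subcluster 6, led by Ccl2, Fst and Mgp, held 7 and 61. Subclusters 7 and 8, led by Cxcl2 and Fabp4 and by Col1a1, held 10 and 9 and 3 and 12 cells. The other 4 had at least 20 cells in each library: subcluster 0 (led by Tgm3, Serpinb7 and Krt2) with 50 and 149, subcluster 2 (Adgrl3, Cst6 and Krt79) with 78 and 44, subcluster 4 (Clca3a2 and Skint11) with 51 and 33, and subcluster 5 (Ccdc71l and Alpk1) with 49 and 22. Only subcluster 0 had 50 cells in each, so the limit of 20 was chosen after the data were seen.

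Within these 4 subclusters p53 targets were higher in 15 of 30, 22 of 31, 14 of 27 and 10 of 29 genes in subclusters 0, 2, 4 and 5, where 5.22%, 5.0%, 4.69% and 6.03% of all genes were higher. Zmat3 had log2 ratios of 1.85, 1.85, 2.33 and 1.89 there. Interferon genes were higher in 3 of 9, 9 of 13, 10 of 15 and 5 of 8. MHC class I genes were higher in 0 of 13, 7 of 16, 1 of 16 and 1 of 11, so the 12 of 16 found over all members were not met within any of the 4. B2m alone had ratios of 0.48, 1.31, 0.88 and 1.12. Early differentiation genes were higher in 3 of 16, 3 of 15, 5 of 15 and 4 of 14, among them Sbsn in all 4 (2.02, 1.73, 2.48 and 2.52). Lower ones numbered 2, 0, 1 and 1. The list medians were -0.06, 0.15, 0.84 and 0.09, against 0.64 over all members, so only subcluster 4 reached that value.

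Cholesterol synthesis genes were lower in 12 of 16, 6 of 15, 0 of 12 and 11 of 14 genes of subclusters 0, 2, 4 and 5, where 6.10%, 8.90%, 8.54% and 6.06% of all genes were lower. Krt15 had a lower level in irradiated cells of all 4, with 8.99 CP10K in irradiated and 23.6 CP10K in control cells of subcluster 0, 10.4 and 14.1 CP10K in subcluster 2, 10.1 and 51.6 CP10K in subcluster 4 and 3.53 and 5.70 CP10K in subcluster 5; the ratio in subcluster 2, at -0.43, was short of the 1.5-fold limit. Gria3 had 151 and 1 UMIs in subcluster 0, 235 and 0 in subcluster 2, 109 and 0 in subcluster 4 and 101 and 1 in subcluster 5. Mcam had 109 and 6, 232 and 1, 106 and 4, and 91 and 2 UMIs in the same order. Both genes were detected in irradiated cells of each of these 4 subclusters, with at most 6 UMIs in the control cells of any of them.

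Several lower counts over all members shrank when the 4 subclusters were weighted alike. Basement membrane genes were then lower in 4 of 13, hair follicle genes in 2 of 10, mitosis genes in 2 of 13, DNA synthesis genes in 2 of 21, senescence genes in 2 of 8 and DNA damage response genes in 0 of 22. Single genes that turned direction in that mean included Areg (0.09), Brca1 (0.62), Ccnb1 (0.32), Ddit4 (0.18), Dsc2 (0.48), Flrt2 (0.15) and Tgfb2 (0.62). The p53 targets were higher in 20 of 31 and the cholesterol synthesis genes lower in 9 of 17 in the same mean.

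**Figure D5:**
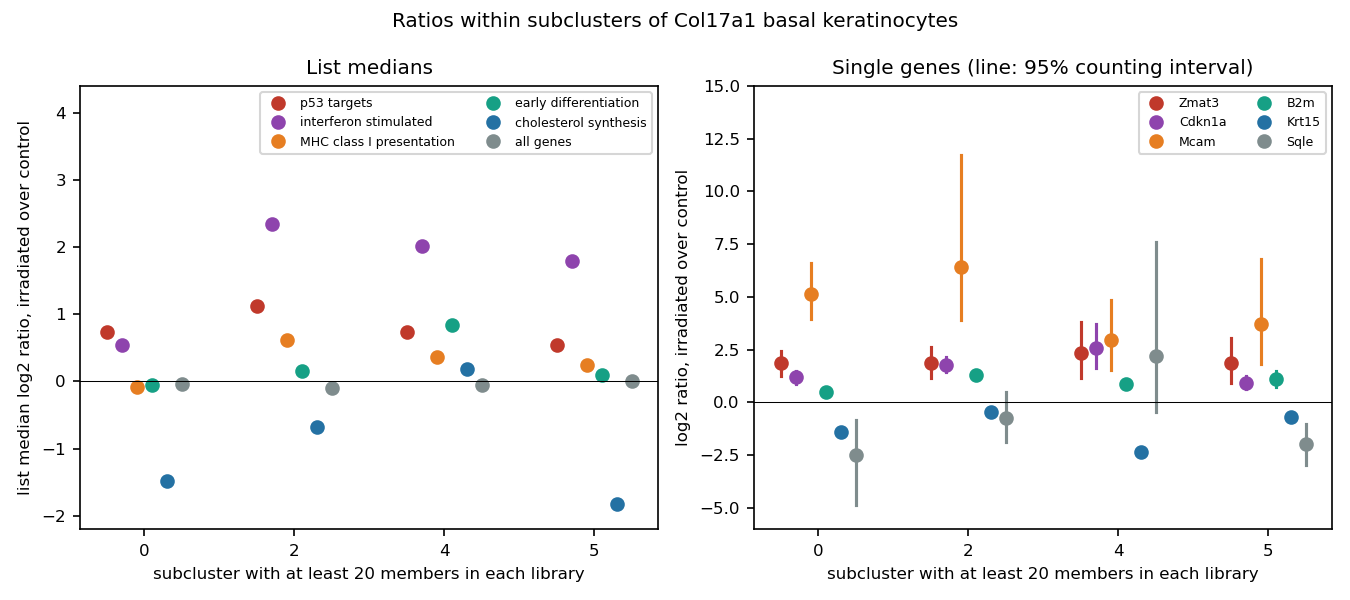
Log2 ratios of irradiated over control within the 4 subclusters that held at least 20 members of each library, as list medians (left) and for single genes with 95% counting intervals (right). The p53 medians lie between 0.54 and 1.12 in all 4, while the MHC class I medians lie between -0.08 and 0.62.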

How the data were processed

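The files hold raw counts as deposited: whole numbers of UMIs for each gene in each cell barcode, not normalised. Per the submitters' processing notes the authors used Cell Ranger 5 and mm10, and the headers of the files name release 5.0.1. The annotation and any further barcode filter are not given in the sources used here. UMIs were summed over the members of each library and divided by the summed total. Intervals are exact conditional Poisson intervals for ratios and Clopper-Pearson intervals for shares at 95%, and UMI counting error is all they cover. With 1 library for each condition no p-value was computed. The gene lists, the members and the rules were chosen with earlier results of these data known.

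Named genes were the 4 markers, up to 4 called genes with the largest ratios and the first 2 genes of each list, and the 12 highest and 12 lowest genes; others (among them Bax, Bbc3, Bst2, Col4a6, Grhl3, Lama3 and Sesn1) were chosen after their values were seen, and some genes within the rule are not reported here. Subclusters came from 1000 variable genes, 20 principal components, 15 neighbours and Leiden clustering at resolution 0.5 (leidenalg 0.10.2, igraph 0.11.9, scikit-learn 1.9.0). Doublets were not removed; Scrublet in scanpy 1.11.5 put 5 irradiated (1.23%) and 15 control members (3.33%) above a score of 0.25, and leaving them out was an alternative. Gene positions came from GENCODE M21 by gene ID. The ratio and its interval were tested on simulated data. Python 3.11.15, numpy 2.4.6, scipy 1.17.1 and pandas 2.3.3 were used. Alternatives changed the cell filter, doublets, depth, rule limits, scaling, cell weights, low counts and subclusters.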

Additional observations from a re-analysis of the deposited data

Results flagged for a closer look

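For 7 genes named above the irradiated-over-control ratio was called in 1 direction in the Col17a1 basal cells and lay past 1.5-fold in the other in wound-edge keratinocytes of the same 2 libraries. The difference between the cell sets was not tested, since each had 1 library for each condition. Krt15 had a log2 ratio of -0.83 in basal cells and 2.03 in wound-edge cells, Cd34 -1.51 and 1.00, Col4a1 -1.63 and 0.74, Gdf15 -1.53 and 2.57, and Igfbp3 -1.65 and 0.85. Cd74 had 0.60 in basal cells and -1.92 in wound-edge cells, and H2-Eb1 1.48 and -1.89. The wound-edge set held 71 irradiated and 370 control cells. RNA of other cell types differed between its libraries too. Fibroblast markers summed to 0.587 CP10K in irradiated and 25.6 CP10K in control wound-edge cells, and leukocyte markers to 0.418 and 1.55 CP10K. Endothelial markers ran the other way there, with 1.23 and 0.422 CP10K. The part of that RNA in the ratios of these 7 genes was not tested.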

How the results depend on the processing

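The count of higher p53 targets stayed within 1.5 times of 17 under every alternative run, between 15 and 20. The share of members among keratinocytes was higher in the irradiated library under every rule tried: with Col17a1 at 10 CP10K 34.6% and 20%, at 2.5 CP10K 48.7% and 31.6%, with Krt5 and Krt14 at 100 CP10K 55.4% and 31.8%, with wound keratins under 10 CP10K 37.9% and 20.6%, and thinned to 2000 UMIs 30.7% in the control library. Thinning to 2000 UMIs, which leaves fewer genes measured, gave 304 genes higher and 634 lower, 8 interferon genes higher, 5 cholesterol genes lower and 3 mitosis genes lower. A 2-fold limit gave 348 higher, 953 lower, 4 early differentiation genes and 7 cholesterol genes. Mitosis genes lower were 8 with wound keratins under 10 CP10K and 10 in cells of 10000 to 30000 UMIs, and no hemidesmosome gene was lower with wound keratins under 10 CP10K. For means over subclusters 0.5 UMI was added to each sum and the interval was a normal approximation, so counts differ slightly from the exact ones given for subcluster 0 in the text (558 lower over all genes). By that method the subcluster of at least 50 cells in each library gave 551 genes higher and 533 lower, against 642 and 1760 over all members. It also gave 4 early differentiation, 4 interferon and 1 MHC class I genes higher and 0 mitosis genes lower. The 4 subclusters of at least 20 cells, an alternative added after the data were seen, as were the limits of 10 CP10K and of 10000 to 30000 UMIs, gave 321 higher, 737 lower, 4 early differentiation, 11 interferon and 4 MHC class I genes higher and 2 mitosis genes lower. No paired analysis was possible because there is 1 library for each condition. Called genes named above whose log2 ratio changed sign in the first subcluster were Areg 1.63, Birc5 0.16, Cald1 0.74, Casp4 -0.34, Casp8 0.01, Cldn1 -0.25, Ddit4 0.45, Dsc2 0.11, Gclm 0.09, Grhl3 -0.16, H2-K1 -0.32, Krt17 1.40, Rrm2 0.00, Tgfb2 0.16; in the 4 subclusters they were Areg 0.09, Brca1 0.62, Ccnb1 0.32, Ddit4 0.18, Dsc2 0.48, Flrt2 0.15, Tgfb2 0.62. Casp8 changed sign to 0.27 when thinned. The cause was not tested. Genes with few UMIs, such as Tgm1 or Gdf15, were limited by depth.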
